A study of Homo sapiens and Mus musculus with 54 samples.

Results

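The acute phase proteins are plasma proteins whose output by the liver changes in inflammation. The 10 human genes described here encode the 3 chains of fibrinogen (FGA, FGB and FGG), C-reactive protein (CRP), the serum amyloid A proteins SAA1 and SAA2, haptoglobin (HP), orosomucoid (ORM1) and the protease inhibitors SERPINA1 and SERPINA3. They were taken by name, and all 10 were found among 19974 protein-coding genes of RefSeq GRCh38.p14. Intervals from 4 HepG2 ChIP-seq lists were counted at a gene when they lay within 50 kb of its body. FGA, FGB and FGG lie side by side on chromosome 4 and share most of their intervals, as do SAA1 and SAA2 on chromosome 11. SERPINA1 and SERPINA3, both on chromosome 14, share none, so the 10 genes form 7 loci. In all, 79 AhR peaks, 81 C/EBPα peaks, 120 H3K27ac regions of the inhibitor experiment and 123 H3K27ac regions of the untreated experiment lay at the 10 genes, of 56739, 62761, 97145 and 106666 in the whole lists.

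HepG2 is a human liver cancer cell line, and all cells used here were collected on day 12. AhR ChIP had 2 libraries from vitamin B2-deficient cells and 2 from control cells, and C/EBPα ChIP had 2 of each as well. H3K27ac ChIP had 5 libraries from B2-deficient cells and 5 from control cells. A further H3K27ac experiment had 2 libraries from B2-deficient cells with an AhR inhibitor, 2 from B2-deficient cells with DMSO and 2 from control cells with DMSO. The inhibitor is not named in the labels, and the H3K27ac experiment with neither inhibitor nor DMSO is called untreated. Cells for AhR and C/EBPα ChIP were crosslinked with DSG and formaldehyde, and those for H3K27ac with formaldehyde alone. Inputs were 2 B2-deficient libraries titled for AhR and C/EBPα ChIP together, 2 control libraries for AhR and 2 control libraries for C/EBPα. The labels name no cytokine or other inflammatory stimulus. Each list covers an experiment as a whole, with positions alone and no record of which libraries gave a peak, so no level, depth or difference between B2-deficient and control cells, or between inhibitor and vehicle, was measured. The mouse libraries of the series were not analysed here.

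In the acute phase response, cytokines released by macrophages act on hepatocytes. Interleukin 6 signals through its receptor and JAK kinases to the transcription factor STAT3, and interleukin 1 signals through NF-κB, while C/EBP factors and the liver factor HNF4A maintain the genes in hepatocytes. AhR, the aryl hydrocarbon receptor, is a ligand-activated transcription factor best known for inducing CYP1 genes, and it binds DNA with ARNT at sites with the core GCGTG. Acetylation of histone H3 at lysine 27 marks enhancers and promoters in use.

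AhR peaks lay directly before the starts of several acute phase genes, and a C/EBPα peak lay under most of them. RefSeq promoter windows, from 250 bp before to 50 bp after the start, were held for 7 of the 10 genes. HP, SAA1 and SAA2 were not among them. An AhR peak covered part of the window in 5 of these 7 genes (FGA, FGB, FGG, SERPINA1 and SERPINA3), against 8.77% of 15813 protein-coding genes with a window. C/EBPα covered it in 4 of 7, against 12.4% of genes, and 4 of 7 had AhR and C/EBPα over the same window, against 3.22%. No H3K27ac region covered a window of the 7 genes, and 1.34% of all genes had one. The H3K27ac list thins out near starts, as described below, so this absence does not show that the mark was lacking. No test was run on these shares.

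The 250 bases before these starts are shown because an AhR peak covers part of each. Sequences are from RefSeq GRCh38.p14, 5′ to 3′ along the gene. Capitals mark every match, on either strand, to the AhR core GCGTG, the C/EBP motif TTGCNNAA, the STAT motif TTCNNNGAA and the NF-κB motif GGNNTTTCC. No matches of different motifs overlapped each other.
FGA, chr4:154590743-154590992, minus strand: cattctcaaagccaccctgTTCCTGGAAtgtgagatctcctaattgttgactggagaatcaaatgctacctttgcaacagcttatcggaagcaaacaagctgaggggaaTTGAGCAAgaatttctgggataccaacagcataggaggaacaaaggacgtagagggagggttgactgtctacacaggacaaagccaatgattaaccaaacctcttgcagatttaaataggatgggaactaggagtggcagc
FGB, chr4:154562730-154562979, plus strand: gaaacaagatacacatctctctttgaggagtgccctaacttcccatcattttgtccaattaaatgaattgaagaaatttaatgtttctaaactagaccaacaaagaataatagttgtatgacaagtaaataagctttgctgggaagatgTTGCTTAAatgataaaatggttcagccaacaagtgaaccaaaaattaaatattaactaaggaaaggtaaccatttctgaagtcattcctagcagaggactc
FGG, chr4:154612657-154612906, minus strand: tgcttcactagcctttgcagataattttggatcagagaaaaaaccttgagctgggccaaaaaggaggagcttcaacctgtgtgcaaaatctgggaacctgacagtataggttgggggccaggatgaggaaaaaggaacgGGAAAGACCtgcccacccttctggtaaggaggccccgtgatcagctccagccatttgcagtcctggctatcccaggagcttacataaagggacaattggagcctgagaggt
SERPINA1 upstream start, chr14:94390636-94390885, minus strand: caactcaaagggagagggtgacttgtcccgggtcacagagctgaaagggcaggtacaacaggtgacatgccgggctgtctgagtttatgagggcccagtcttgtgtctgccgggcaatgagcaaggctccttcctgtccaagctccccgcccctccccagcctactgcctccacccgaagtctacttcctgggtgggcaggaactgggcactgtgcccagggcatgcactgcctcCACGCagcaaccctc
SERPINA1 downstream start, chr14:94388603-94388852, minus strand: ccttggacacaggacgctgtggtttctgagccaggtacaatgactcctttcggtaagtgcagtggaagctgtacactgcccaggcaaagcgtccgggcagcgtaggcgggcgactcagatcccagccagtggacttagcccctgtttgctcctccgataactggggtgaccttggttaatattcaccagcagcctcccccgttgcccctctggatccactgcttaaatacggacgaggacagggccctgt
SERPINA3, chr14:94612141-94612390, plus strand: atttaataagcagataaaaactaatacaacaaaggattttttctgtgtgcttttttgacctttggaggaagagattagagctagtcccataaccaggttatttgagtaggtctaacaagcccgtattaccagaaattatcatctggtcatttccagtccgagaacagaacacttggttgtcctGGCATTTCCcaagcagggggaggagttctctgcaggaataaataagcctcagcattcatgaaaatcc

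Positions in what follows count from 0 at the start site. FGA, which encodes the Aα chain of fibrinogen, had an AhR peak from -262 to -38 and a C/EBPα peak from -239 to -31, with centres 15 bp apart. Under both peaks lay a C/EBP match at -141 to -134 and a STAT match at -231 to -223. FGA was the only gene of the 7 with matches to 2 of the motifs in its window. FGB, the Bβ chain, had a single AhR peak from -203 to 8 with a C/EBP match at -101 to -94, yet no C/EBPα peak overlapped it. FGG, the γ chain, had an AhR peak from -399 to -151 and a C/EBPα peak from -405 to -179, with centres 17 bp apart, and the NF-κB match in its window, at -111 to -103, lay outside both peaks. SERPINA3, the inhibitor of cathepsin G known as α1-antichymotrypsin, had an AhR peak from -221 to -3 and a C/EBPα peak from -187 to 42, with an NF-κB match at -67 to -59 under both.

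SERPINA1 encodes α1-antitrypsin, the main plasma inhibitor of neutrophil elastase, and is known to be transcribed from separate starts in hepatocytes and in monocytes. The RefSeq table holds 2 of its starts, at 94390635 and 94388602, and an AhR peak lay before each. At the downstream start the AhR peak, from -288 to -25, had a merge number of 2, and a C/EBPα peak with a merge number of 3 lay from -246 to 32. At the upstream start the AhR peak, from -202 to 3, had a merge number of 1 and no C/EBPα peak overlapped it. The merge number is what a peak's name ends in, taken as how many peaks were joined into it, and a peak is called merged at 2 or more. The sources used here do not say which peak sets were joined. The upstream window held the only AhR core match of the 7 genes, at -15 to -11 on the opposite strand. GCGTG was present in 43.0% of 22156 promoter windows of protein-coding genes and in 50.6% of the 1554 windows under an AhR peak. The C/EBP motif was present in 11.9% of windows under an AhR peak and 8.69% of all windows, STAT in 8.56% and 6.79%, and NF-κB in 6.69% and 6.46%. These matches describe letters in the windows and not sites in use.

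**Figure D1:**
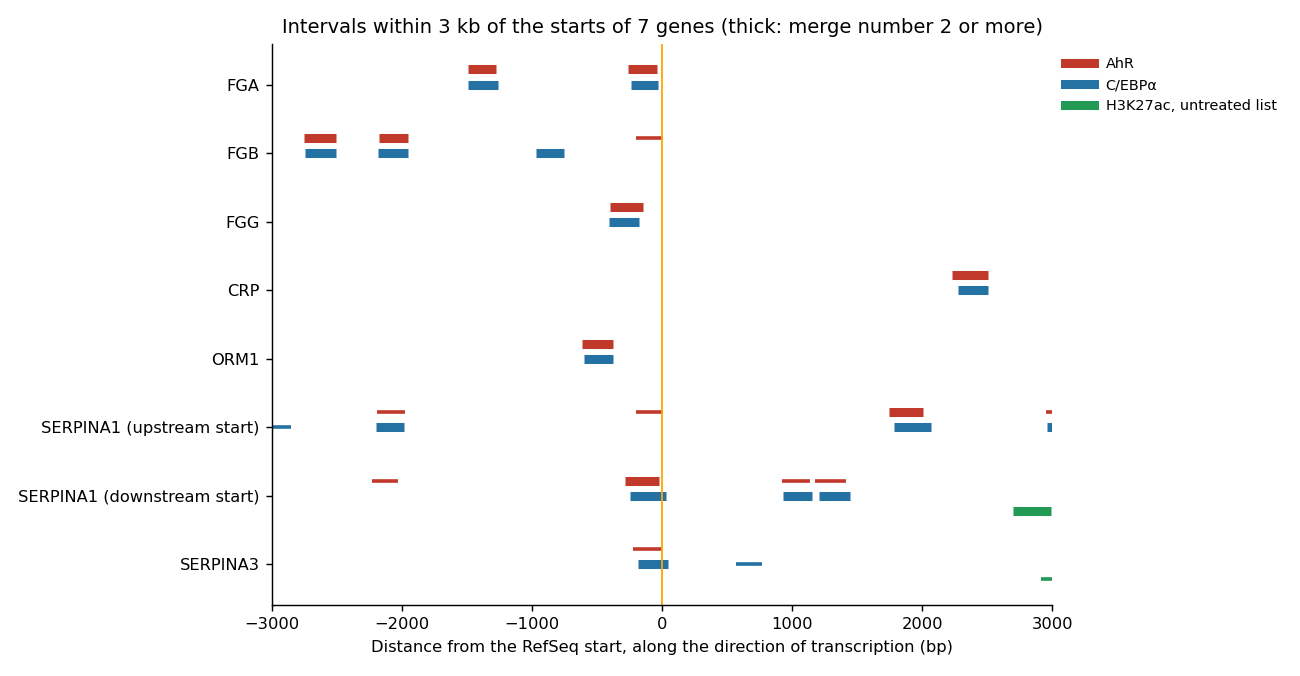
Intervals within 3000 bp of RefSeq starts, with distance in bp along the direction of transcription on the x axis and 1 row for each start (FGB at the first of its 2 starts). Red bars are AhR peaks, blue bars C/EBPα peaks and green bars H3K27ac regions of the untreated list, thick where the merge number is 2 or more. The AhR bar closest to the start ends before it in FGA, FGG, ORM1, SERPINA3 and at the downstream start of SERPINA1, reaches 8 and 3 bp past it in FGB and at the upstream start of SERPINA1, and is centred 2370 bp after it in CRP, while SERPINA1 has further AhR bars after both starts.

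ORM1, a drug-binding plasma glycoprotein, had its closest AhR peak farther out, at chr9:114322479-114322720, 378 bp before the gene, with a C/EBPα peak centred 8.5 bp away. That pair lay outside the ORM1 window, which held an NF-κB match at -112 to -104 and no peak. The neighbouring copy ORM2 had an AhR peak centred at -490.5 bp from its lower-coordinate gene end, where the centre at ORM1 lay at -498.5 bp. HP, which binds free haemoglobin in plasma, had an AhR peak at chr16:72054386-72054632 and a C/EBPα peak at 72054387 to 72054629, both across the lower-coordinate gene end at 72054505 and with centres 1 bp apart. Its copy HPR, 2171 bp away, had an AhR peak of its own at 72063004 to 72063236 across its end at 72063226. The AhR peaks at all 4 genes had a merge number of 2. ORM1 and ORM2, HP and HPR, and SAA1 and SAA2 are close copies of each other, and the treatment of reads that match several places is not stated, so which copy a peak belongs to is uncertain.

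CRP and the SAA genes differed from this pattern. CRP, the pentraxin that tags microbes and dead cells, had no peak over its promoter window and no match to the 4 motifs there. Its closest AhR peak, at chr1:159712082-159712357 with a merge number of 2, lay across the far end of the gene, its centre 2370 bp after the start, together with a C/EBPα peak with a merge number of 3. SAA1, an apolipoprotein of high-density lipoprotein in inflammation, was the only member without an AhR peak within 1 kb of its body. The closest AhR peak lay 4824 bp away with a merge number of 1, while a C/EBPα peak without AhR lay 71 bp from the gene at chr11:18265942-18266193. SAA2 had a merged AhR peak inside the gene at 18239738 to 18239967, which had C/EBPα and H3K27ac at the same place. A second merged AhR peak, 916 bp from SAA2 at 18237081 to 18237320, shared its place with a C/EBPα peak, the centres 2 bp apart, and had another gene than SAA2 as its nearest. Merged AhR peaks with C/EBPα and H3K27ac also lay between SAA2 and SAA1, at 18259342 to 18259575, and beyond SAA4, at 18223998 to 18224246. In all, 9 of 10 members had an AhR peak within 1 kb of the gene body, against 50.6% of protein-coding genes, and 10 of 10 had a C/EBPα peak there, against 56.0%.

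Across the wider window of 50 kb, the counts ran from 2 AhR peaks at CRP to 24 at SERPINA1. All 10 genes had at least 1 AhR peak, against 85.4% of protein-coding genes, and at least 1 C/EBPα peak, against 88.6%. Such a window therefore contains a peak at most genes, and the presence of one says little about the members. The median was 12.5 AhR peaks over the 10 genes and 4 over all protein-coding genes, and for C/EBPα it was 13 and 4. Counted per 100 kb of window, which allows for gene length, the median of AhR peaks was 11.5 over the 10 genes and 2.58 over all genes. SERPINA1 had 21.1 AhR peaks per 100 kb, a density exceeded by 0.025% of protein-coding genes. The densities of FGG, FGA and FGB were exceeded by 0.616%, 0.891% and 0.996% of genes, and that of CRP by 57.2%. By number, the 24 peaks of SERPINA1 were exceeded by 0.666% of genes. FGG had 15 peaks, FGA 14 and FGB 14, numbers exceeded by 3.46% of genes for FGG and 4.22% for FGA and FGB. HP had 13 and SERPINA3 had 12 AhR peaks. SAA1 and SAA2 had 7 each, all 7 of them shared, ORM1 had 6, and CRP had 2, which 61.7% of genes exceeded.

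**Figure D2:**
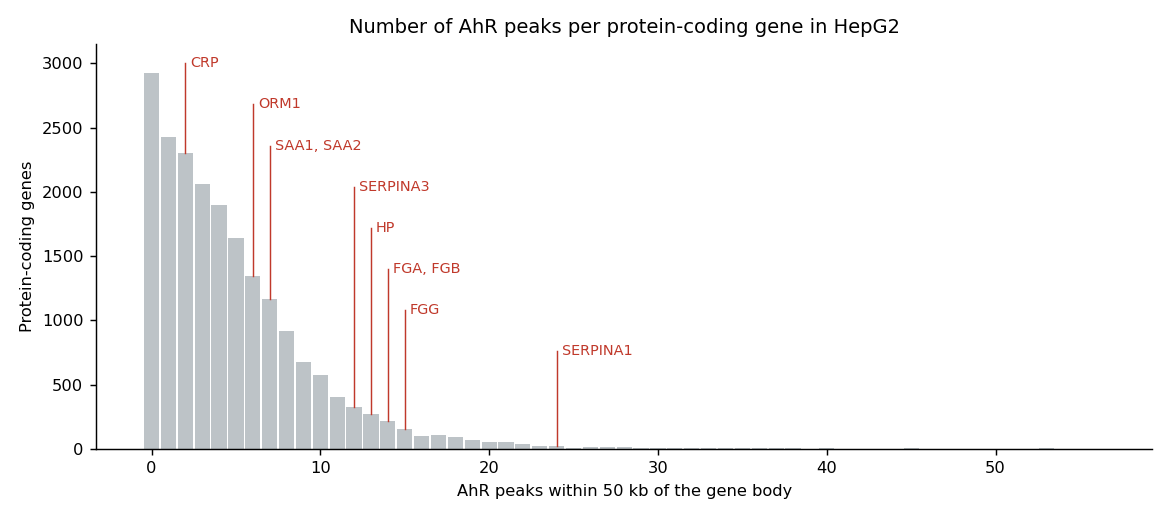
Number of protein-coding genes (y axis) by the number of AhR peaks within 50 kb of the gene body (x axis), with the 10 acute phase genes marked by red lines. CRP with 2 peaks lies below the median of 4 over all genes, the other 9 members lie above it, and SERPINA1 lies farthest out with 24.

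The fibrinogen cluster, at chr4:154562980-154612656 from FGB to FGG, held 15 distinct AhR peaks, of which 14 lay in the windows of all 3 genes and 1 in that of FGG alone. Of the 15, 10 were merged (66.7%) against 42.3% of the whole list, and 11 overlapped a C/EBPα peak. Beside the 3 peaks at the starts, a peak at 154577366 to 154577588 in the space between FGB and FGA, with a merge number of 2, overlapped C/EBPα and H3K27ac. Other such merged peaks lay 5164 bp before FGA at 154595906 to 154596109, between FGA and FGG at 154598097 to 154598480, 5158 bp before FGG at 154617814 to 154618028 and 47507 bp before FGG at 154660163 to 154660385. Before FGB, merged AhR peaks centred at -2064 and -2633 bp from the start each overlapped a C/EBPα peak with a merge number of 3 and no H3K27ac region. Inside the gene bodies of the cluster there was little: FGA held no AhR peak, FGB held part of the peak at its start, and FGG held 1, with a merge number of 1.

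SERPINA1 carried the densest group. Of its 24 AhR peaks, 6 touched the gene body and 18 had SERPINA1 as their nearest gene. C/EBPα overlapped 13 of the 24, H3K27ac overlapped 17, and 9 overlapped both. Merged AhR peaks with both partners lay before the gene at 94396001 to 94396222, 94400551 to 94400761 and 94403382 to 94403619, which is 5366 to 12747 bp from the gene body on the side of its start. On the other side of the gene, merged peaks with both partners lay at 94355185 to 94355439, 21308 bp away, and at 94339764 to 94340011 and 94340499 to 94340800, the last 35947 bp away and both nearer to another gene. The outermost AhR peak counted lay 49093 bp from SERPINA1, and the next one out, at 53252 bp, was not counted. None of the 12 AhR peaks at SERPINA3 touched the gene body, and 4 had SERPINA3 as their nearest gene. Beyond the peak at its start, the nearest merged AhR peak with both partners lay 12815 bp past the gene at 94636868 to 94637090, and others lay before the gene at 94599221 to 94599477, 94593998 to 94594218 and 94572793 to 94573031, at 12914 to 39360 bp.

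At HP, 10 of the 13 AhR peaks overlapped C/EBPα, and the merged ones with H3K27ac as well lay at 72017206 to 72017451, 72043135 to 72043347 and 72072838 to 72073073. At ORM1 the only AhR peak with both partners lay 37789 bp past the gene at 114364268 to 114364502. Peaks in these windows also belong to other genes. PLRG1 lies within 50 kb of FGA and FGB, SAA4, SAA2-SAA4 and HPS5 of the SAA genes, HPR, DHODH, TXNL4B and DHX38 of HP, ORM2, AKNA and COL27A1 of ORM1, and SERPINA4 and SERPINA5 of SERPINA3. No other protein-coding gene lay within 50 kb of SERPINA1 or CRP. Of the 79 AhR peaks, 47 had a member as their nearest gene.

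**Figure D3:**
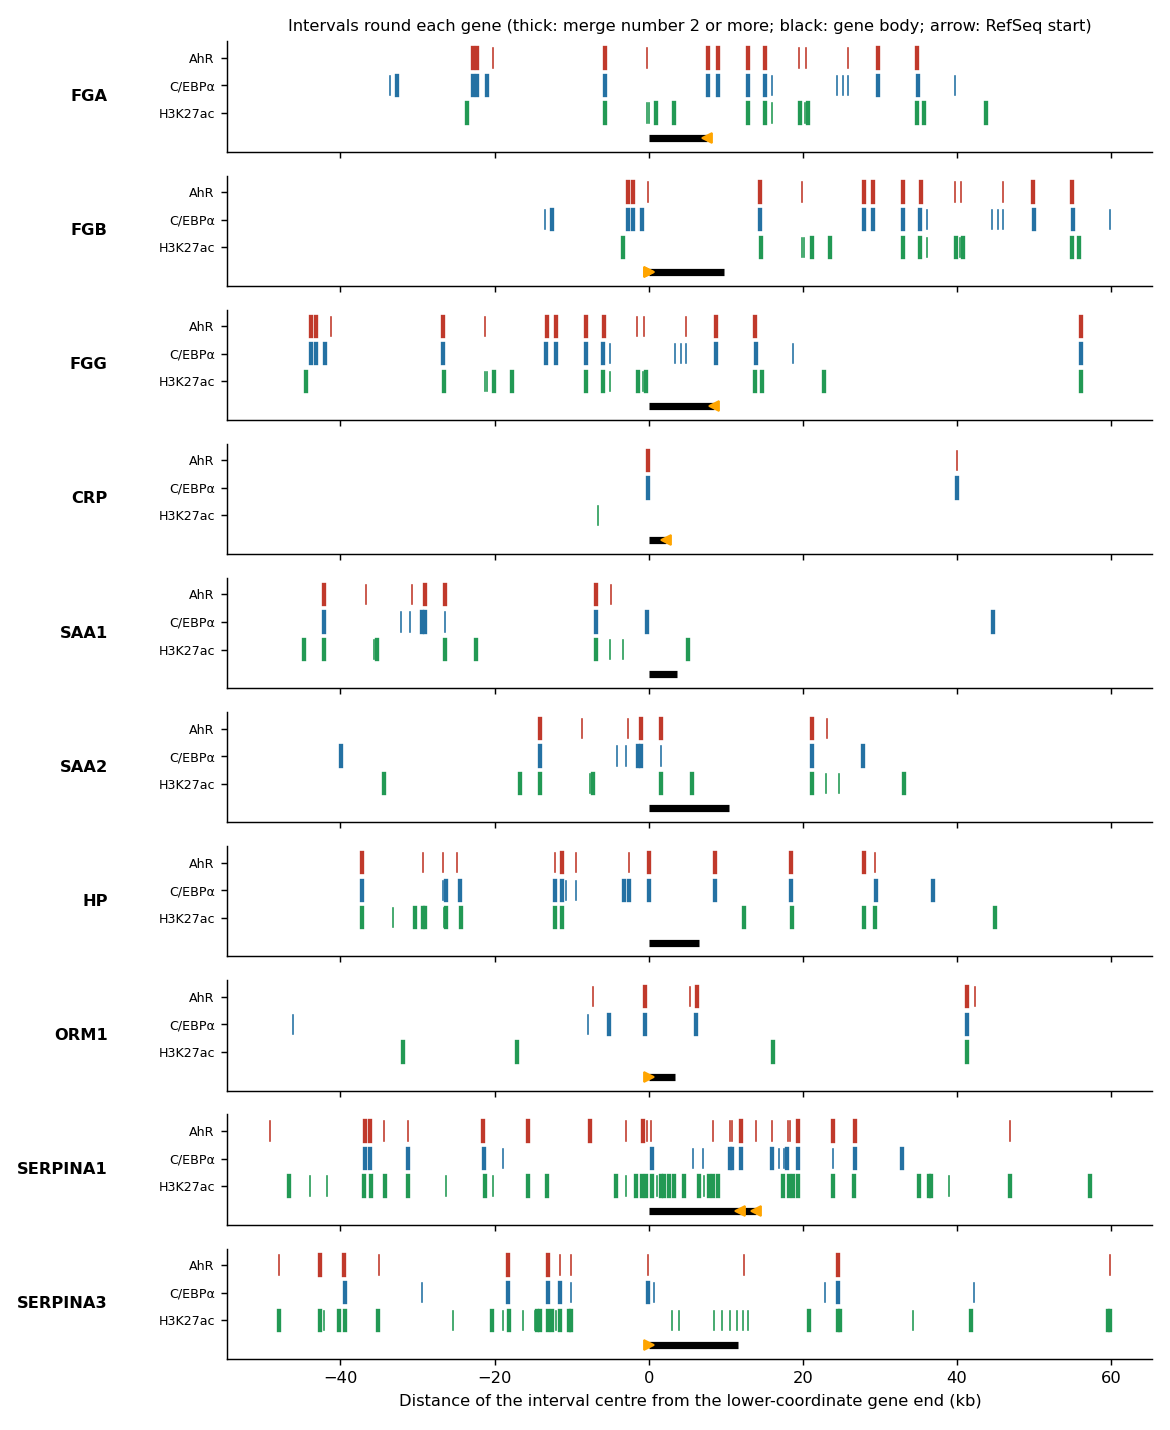
Centres of AhR peaks (red), C/EBPα peaks (blue) and H3K27ac regions of the untreated list (green) round each of the 10 genes, with distance in kb from the lower-coordinate gene end on the x axis. Thick lines have a merge number of 2 or more, black bars are gene bodies and orange arrows are RefSeq starts, where held. The 24 AhR and 41 H3K27ac lines of SERPINA1 contrast with the 2 and 1 of CRP, and the 3 fibrinogen rows show the same intervals shifted.

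C/EBPα overlapped 50 of the 79 AhR peaks at the members, 63.3% (95% Wilson interval 52.3 to 73.1), against 55.3% of the whole AhR list. Such intervals cover counting error only, and neighbouring peaks are not independent. The median distance between the centres of overlapping AhR and C/EBPα peaks was 14 bp over the 50 pairs at the members and 21.5 bp over 31401 pairs in all. By locus the share with C/EBPα was 2 of 2 at CRP, 10 of 13 at HP, 11 of 15 at the fibrinogen cluster, 7 of 12 at SERPINA3, 4 of 7 at the SAA genes, 13 of 24 at SERPINA1 and 3 of 6 at ORM1. With so few peaks per locus, the Wilson intervals of the loci overlap: they span 49.7% to 91.8% at HP and 35.1% to 72.1% at SERPINA1. In the other direction, 61.7% of the C/EBPα peaks at the members overlapped an AhR peak, against 50.1% of the whole C/EBPα list. A merge number of 3 or more was held by 58.0% of C/EBPα peaks at the members and 39.0% of the whole list.

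**Figure D4:**
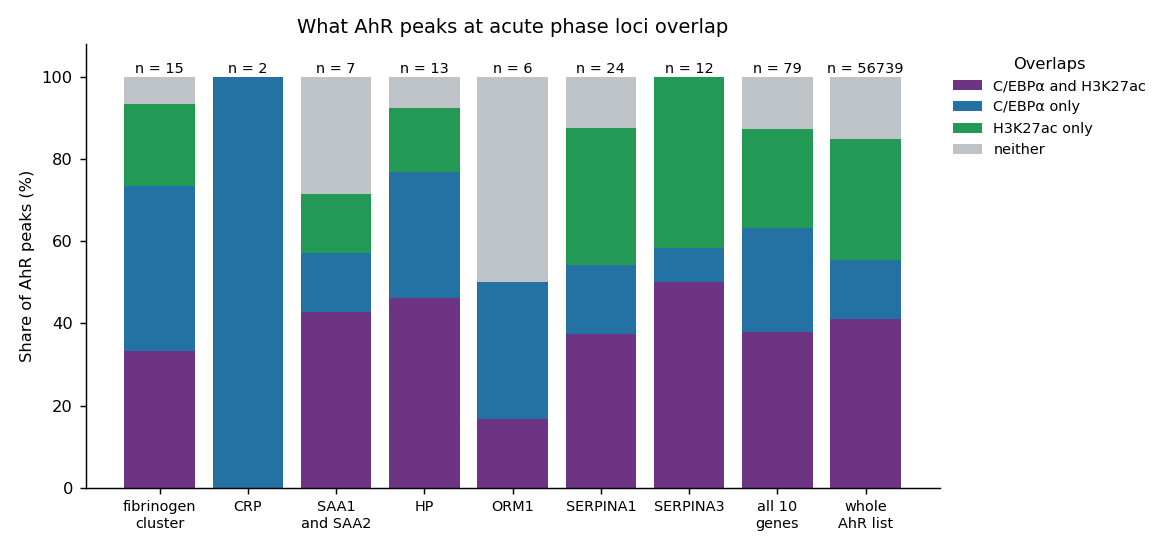
Share in % of AhR peaks (y axis) at each of 7 loci, over the 10 genes together and in the whole AhR list that overlap C/EBPα and H3K27ac, C/EBPα only, H3K27ac only or neither, with the number of AhR peaks above each bar. Peaks with both make up 38.0% at the 10 genes and 41.1% of the whole list, and H3K27ac is absent from both peaks at CRP and from 5 of 6 at ORM1.

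H3K27ac overlapped 49 of the 79 AhR peaks at the members, 62.0% (95% Wilson interval 51.0 to 71.9), against 70.7% of the whole AhR list. The H3K27ac list itself thins out near starts: the untreated list held 2001 region centres from 3000 to 3500 bp of a RefSeq start and 646 from 2500 to 3000 bp, a ratio of 3.1, where the ratio was 0.945 for AhR. The absence of an H3K27ac region within 3 kb of a start therefore does not show that the mark was lacking. Within 3 kb of a start, or of either gene end where no start was held, lay 26 of the 79 AhR peaks at the members. In the whole AhR list, 8819 of 56739 lay there. Of the 26, 4 overlapped an H3K27ac region, 15.4% against 21.4% of the whole AhR list at that distance. Beyond it 45 of 53 did, 84.9% against 79.7% of the whole list, so the contrast by distance was present in the list as a whole. The shares of 62.0% and 70.7% thus cover different mixes of near and far peaks, and the part of this was not tested. The AhR peaks closest to the starts of FGA and FGG, to the lower gene end of HP and to the start of ORM1 lay 4066, 4741, 10958 and 16332 bp from the nearest H3K27ac region. AhR peaks with both C/EBPα and H3K27ac were found at 9 of 10 members, against 62.2% of protein-coding genes, and the exception was CRP. The 3 fibrinogen genes share 4 such peaks and SAA1 and SAA2 share 3, so the 9 are not separate observations.

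Acetylated regions were spread unevenly over the members. SERPINA1 had 41 regions within 50 kb and SERPINA3 had 35, numbers exceeded by 1.31% and 2.28% of protein-coding genes. FGG had 16, FGA and HP 15 each, FGB 14, SAA2 11, SAA1 10, ORM1 4 and CRP 1, against a median of 7 over all genes. At least 1 region was thus found at all 10 members, against 90.4% of protein-coding genes. The SERPINA1 gene body alone held 12 regions, 10 of them merged, and the widest of these, at 94380611 to 94382008, was 1398 bp with a merge number of 7. In the whole list 20 regions were wider and 2 had a higher merge number, and neither AhR nor C/EBPα overlapped this one. The 6 regions in the body of SERPINA3 all had a merge number of 1. No region touched the bodies of FGB, FGG, CRP, SAA1, HP or ORM1, and part of each gene lies within 3 kb of its start, where the list is thin.

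**Figure D5:**
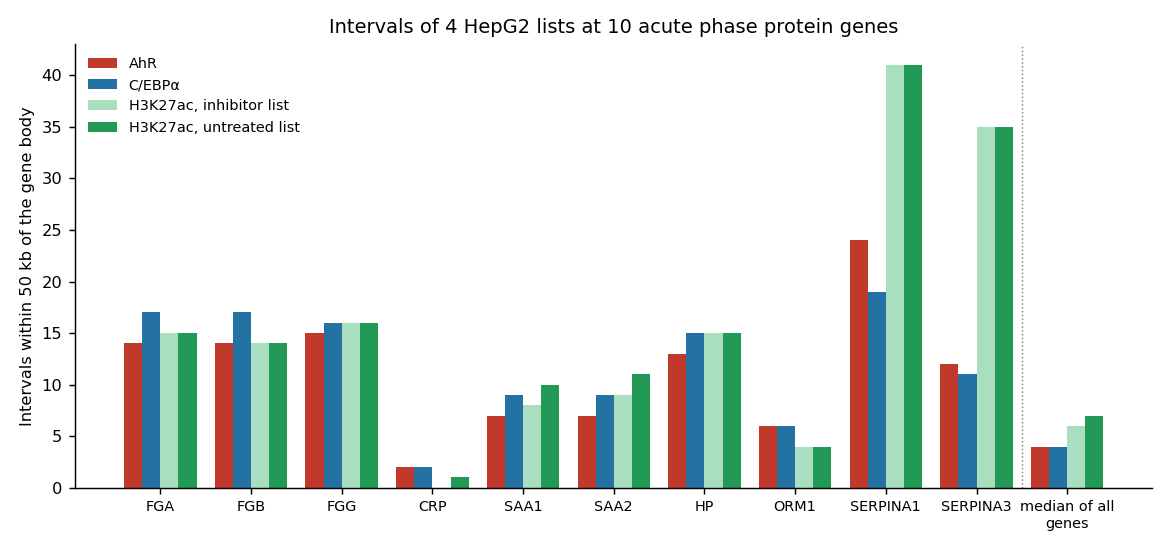
Number of intervals within 50 kb of the body of each of the 10 genes (y axis, starting at 0) in the AhR, C/EBPα, H3K27ac inhibitor and H3K27ac untreated lists, with the median over all protein-coding genes at the right. AhR and C/EBPα counts are alike at most genes, from 2 and 2 at CRP to 24 and 19 at SERPINA1, while H3K27ac counts are highest at SERPINA1 and SERPINA3.

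The list named for the AhR inhibitor experiment held 120 regions at the members, and the untreated list held 123. All 120 had identical coordinates in the untreated list, which is 97.6% of the 123, against 87.4% of the whole untreated list. Of the 97145 regions in the whole inhibitor list, 3943 had no identical entry in the untreated list. The 2 lists therefore cannot be taken as independent of each other. The 3 regions without an identical entry in the inhibitor list were the only region at CRP, at 159705616 to 159705853, 1 inside SAA2 at 18243783 to 18244015 and 1 at 18262789 to 18263050, 3214 bp from SAA1. AhR and C/EBPα overlapped none of the 3. CRP thus had no region in the inhibitor list, in which 9 of 10 members had at least 1, against 88.1% of protein-coding genes. The inhibitor list is not divided by library, so the missing entries do not compare the inhibitor with DMSO.

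Genes that carry the acute phase signal were read from lists chosen for their roles. All 10 signalling genes had an AhR peak within 50 kb, against 85.4% of protein-coding genes. Their median was 9.5, against 4 over all genes, from 2 at JAK2 to 21 at TNFRSF1A, a receptor of tumour necrosis factor. IL6R and IL6ST, the 2 chains of the interleukin 6 receptor, had 6 and 11, STAT3 had 11 and SOCS3, the feedback inhibitor of this pathway, had 8. At STAT3 the 25 C/EBPα peaks outnumbered the 11 AhR peaks. These genes are longer than the members, with a median of 69613.5 bp against 8069 bp. Per 100 kb of window their median was 6.32 AhR peaks, against 2.58 over all genes. An AhR peak lay over a promoter window in 1 of the 10 signalling genes, near the 8.77% of all genes with a window. Of 5 liver factors, HNF4A had 18 AhR peaks, CEBPA 12, CEBPB 10, FOXA2 8 and CEBPD 1, for a median of 10, and none of the 3 with a promoter window had an AhR peak over it.

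The 14 genes listed as other positive acute phase proteins had a median of 6 AhR peaks, lower than the 12.5 of the members, and all had at least 3. FGL1, a fibrinogen-like liver protein, had 22, ceruloplasmin (CP) 18 and complement C3 15, while LBP, which presents bacterial lipopolysaccharide, had 3. The list also holds A2M, with 18, and SAA4, which are not regarded as rising in the human acute phase. The 6 peaks of ORM2 and the 7 of SAA4 lie in the windows of members as well. Of the 7 with a promoter window, 4 had an AhR peak over it, against 8.77% of all genes with a window. The negative acute phase proteins, which fall in inflammation, had a median of 15 AhR peaks, from 7 at RBP4 to 36 at ALB, with 22 at TF and 21 at AHSG. The median gene was SERPINA6, and 8 of its 15 peaks were also counted at SERPINA1. All 5 with a promoter window had AhR and C/EBPα over it, against 3.22% of all genes with a window. AhR peaks before starts were thus not limited to the genes that rise in the acute phase, and no test compared these lists.

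H3K27ac regions of the untreated list within 50 kb were also counted at markers of liver and other cell types. The 7 hepatocyte markers had a median of 39 regions, from 10 at APOA1 to 61 at ALB, with 17 at FOXA2, 18 at TTR, 39 at HNF4A and 57 at APOB. ALB and AFP lie within 50 kb of each other, so the 61 regions of ALB and the 59 of AFP are partly the same. The 6 leukocyte markers had a median of 6.5, from 1 at PTPRC to 7 at SPI1, CD3E and ITGAM, and the 5 fibroblast and stellate markers had a median of 4, with none at DCN, 17 at COL1A1 and 21 at PDGFRB. The 4 endothelial markers had a median of 13.5, with none at KDR, 10 at STAB2, 17 at CDH5 and 41 at PECAM1. The counts of hepatocyte markers thus overlapped in range with those of the endothelial and the fibroblast and stellate markers. Per 100 kb of window, the medians were 21.8 for hepatocyte, 4.85 for leukocyte, 2.89 for fibroblast and stellate and 7.94 for endothelial markers. Over all protein-coding genes the median was 4.72. Counts near a marker depend on its neighbours. HepG2 is a single cell line, so these counts do not measure a mix of cell types.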

How the data were processed

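The authors deposited peak lists for ChIP-seq of AhR, C/EBPα and H3K27ac, and 4 HepG2 lists were used. Each has 5 columns (name, chromosome, start, end, strand sign), and the other deposited values, such as a score or tag count, are not part of them. Bowtie2, HOMER and the build hg38 are named, without roles, per the submitters' processing notes. Settings of the caller and filters: not given in the sources used here. Depth is unknown.

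Coordinates of peaks are printed as deposited, and genes, starts and promoter sequences are from RefSeq GRCh38.p14. Lists overlapped at 1 bp or more. A peak was counted at every gene within 50 kb. The other settings were 10 kb, the nearest gene only, merged peaks only, overlap of 50% of the shorter peak, centres within 500 bp, the inhibitor list, and AhR peaks beyond 3 kb of starts, the last chosen after seeing the data. The planned comparison of conditions was not run, because the lists hold no value per library. No test was therefore made. The members and gene lists were chosen with earlier results of these data known. All 10 members were named, with the peaks at gene ends, the nearest AhR peaks and merged AhR peaks with both partners, and other peaks were named after their values were seen. A few list genes and a motif are not reported here. Routines were tested on simulated data. Tools were Matplotlib 3.10.9, SciPy 1.17.1, pandas 2.3.3 and NumPy 2.4.6 under Python 3.11.15.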

Additional observations from a re-analysis of the deposited data

How the results depend on the processing

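All 10 members kept an AhR peak in the 10 kb window and when peaks went to their nearest gene alone. The share of all protein-coding genes under these settings is not given here, so this count does not set the members apart. The 79 AhR peaks became 47 in the 10 kb window, 47 with the nearest gene only and 39 with merged peaks only. The 81 C/EBPα peaks became 46, 50 and 56 under these settings. The 123 H3K27ac regions became 56 in the 10 kb window and 72 with the nearest gene only, and the inhibitor list gave 120. These settings take fewer intervals by construction. The inhibitor list shares most of its coordinates with the untreated list, so like values under it are not separate support. The C/EBPα share of AhR peaks was 54.7% beyond 3 kb of starts and 82.1% with merged peaks only, and 62.0% to 67.1% otherwise. The whole AhR list had 55.3% in the main setting, and its share under the other settings is not given here. The share with H3K27ac was 44.7% in the 10 kb window and 84.9% beyond 3 kb of starts, and 62.0% to 63.3% otherwise. The share with both was 23.4% in the 10 kb window and 49.1% beyond 3 kb of starts, and 36.7% to 40.5% otherwise. The low shares in the 10 kb window go with the thinning of the H3K27ac list near starts, whose part was not tested. Over single members, AhR counts moved by over 1.5 times at 9 of 10 genes under each of the 10 kb, nearest-gene and merged-only settings. No paired analysis was possible because the lists hold no value per library, and leaving out replicates and other count scalings could not be run for this reason. The depth of the libraries limits every missing peak and is unknown.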
